A study of Mus musculus with 4 samples.

Results

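Trp53, the transcription factor p53, together with its regulators Mdm2 and Mdm4 and 7 of its direct target genes (Cdkn1a, Ccng1, Zmat3, Sesn2, Gdf15, Trp53inp1 and Phlda3), was examined in mammary gland tumours of MMTV-R26Met mice. The genes were taken by symbol from the count table, and all 10 were found among its 28440 rows. The study measured 4 tumours, numbered 1 to 4, by bulk sequencing of poly-A RNA. All 4 share 1 genotype, MMTV-R26Met, in which, as background, Cre driven by the MMTV promoter, active mainly in mammary epithelium, turns on a Met receptor transgene placed at Rosa26. The labels give no treatment and no age, and no normal tissue is among the samples analysed here. Nor do they state that each tumour had its own mouse, so p-values measure only the spread between these 4 samples. Library totals ran from 35220504 to 42809015 counts.

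p53 is held at a low protein level because MDM2, a ubiquitin ligase, marks it for destruction, while MDM4, a relative of MDM2, blocks its activation domain. DNA damage, oncogene activity and other stresses release p53, which then switches on genes for cell cycle arrest, apoptosis, repair and metabolism, Mdm2 among them, so that the pathway limits itself. Since p53 is controlled largely as a protein, the amount of its messenger RNA does not give its activity, and counts per gene do not show whether the gene carried a mutation. The levels of target transcripts are therefore given beside that of Trp53 itself.

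p53 binds DNA through a response element of 2 adjoining arms of 10 bases. The element was searched for in RefSeq promoter windows (GRCm38.p6) from 250 bases before to 50 bases after each annotated start, allowing a spacer of at most 1 base and at most 3 mismatches in 20 bases, none of them at the central C and G of an arm. The arms read the same on both strands, so 1 search covered both. Of 32851 windows 2.82% held a match. Windows were found for 8 of the 10 genes, all but Zmat3 and Trp53inp1, and came to 11 in all. Of the 11, 3 held a match, those of Cdkn1a, Ccng1 and Trp53. These 3 are shown because they place the element beside the genes whose transcripts are described next. Capitals mark the arms of the element.
Cdkn1a, upstream start: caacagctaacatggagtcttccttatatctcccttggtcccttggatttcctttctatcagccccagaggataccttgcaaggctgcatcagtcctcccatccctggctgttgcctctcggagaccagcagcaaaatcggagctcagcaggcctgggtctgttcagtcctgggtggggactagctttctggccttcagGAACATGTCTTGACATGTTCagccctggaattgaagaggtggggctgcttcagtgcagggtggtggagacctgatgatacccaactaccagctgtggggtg
Ccng1: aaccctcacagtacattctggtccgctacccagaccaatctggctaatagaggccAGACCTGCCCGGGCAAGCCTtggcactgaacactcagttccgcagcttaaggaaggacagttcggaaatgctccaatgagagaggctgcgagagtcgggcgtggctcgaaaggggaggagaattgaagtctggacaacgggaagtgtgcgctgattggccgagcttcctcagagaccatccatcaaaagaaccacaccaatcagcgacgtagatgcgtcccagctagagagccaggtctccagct
Trp53: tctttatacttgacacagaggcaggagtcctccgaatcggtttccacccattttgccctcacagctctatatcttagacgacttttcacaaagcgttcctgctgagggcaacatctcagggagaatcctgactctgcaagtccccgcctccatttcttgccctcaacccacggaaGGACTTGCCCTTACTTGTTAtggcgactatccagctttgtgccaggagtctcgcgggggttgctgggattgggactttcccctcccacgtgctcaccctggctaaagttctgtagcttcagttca
The Cdkn1a window (GRCm38 chr17:29090729-29091028, plus strand) holds its element at chr17:29090928-29090947, 51 bases before the upstream of 2 annotated Cdkn1a starts and 2841 bases before the downstream one, with 1 mismatch. The Ccng1 element (minus strand, window chr11:40755237-40755536) begins 195 bases before the start and also has 1 mismatch. The Trp53 match (plus strand, window chr11:69580109-69580408) begins 75 bases before the start and has 3 mismatches, all in its downstream arm. All 3 elements lie in the sequence before the gene, outside its exons for the start named. A match is a description of the letters, not a bound site. Sequence outside the windows was not searched, so a window with no match does not show that its gene lacks an element. Among windows of 41 of 52 further p53 target genes, 13 of 56 (23.2%) held a match.

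Trp53 (chromosome 11, 69580348 to 69591873, GRCm38) was read at a moderate level in every tumour. It stood at 92.8, 70.3, 82.0 and 53.2 CPM in tumours 1 to 4 (mean 74.6 ± 17.0, SD, n = 4). CPM are counts scaled to a common library size, with TMM factors between libraries. Tumour 1 was highest and tumour 4 lowest, 1.74-fold apart (folds between the highest and lowest tumour are on the log2 CPM scale with a prior count of 2). The gene ranked 3026 by mean CPM among the 15808 genes with enough counts to be tested.

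The spread of each gene between the tumours was tested in edgeR against that of genes with like expression, and p-values were adjusted over all tested genes by Benjamini-Hochberg. Of those genes 3.63% passed at an adjusted p of 0.05, and 0 of the 10 genes passed. At an unadjusted p of 0.05 the test likewise gave 0 of the 10, against 8.74% of all genes. DESeq2's rule for dispersion outliers also marked 0 of the 10, against 0.576% of all genes. A count of 0 among 10 genes is close to each of these shares and does not set the 10 apart. The lowest edgeR adjusted p was that of Trp53inp1 (0.604), and the other 9 were at 1. The median fold between extremes was 1.95 for the 10 genes and 1.72 for all genes tested. A gene that misses this threshold is not shown to be equal in the tumours. In simulated counts with these 4 libraries the test found 16.7% of 48 genes raised 4-fold in 1 library and 67.4% of 46 raised 8-fold. A fall in 1 library was not simulated, so these shares do not give the rate for such a pattern.

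**Figure D1:**
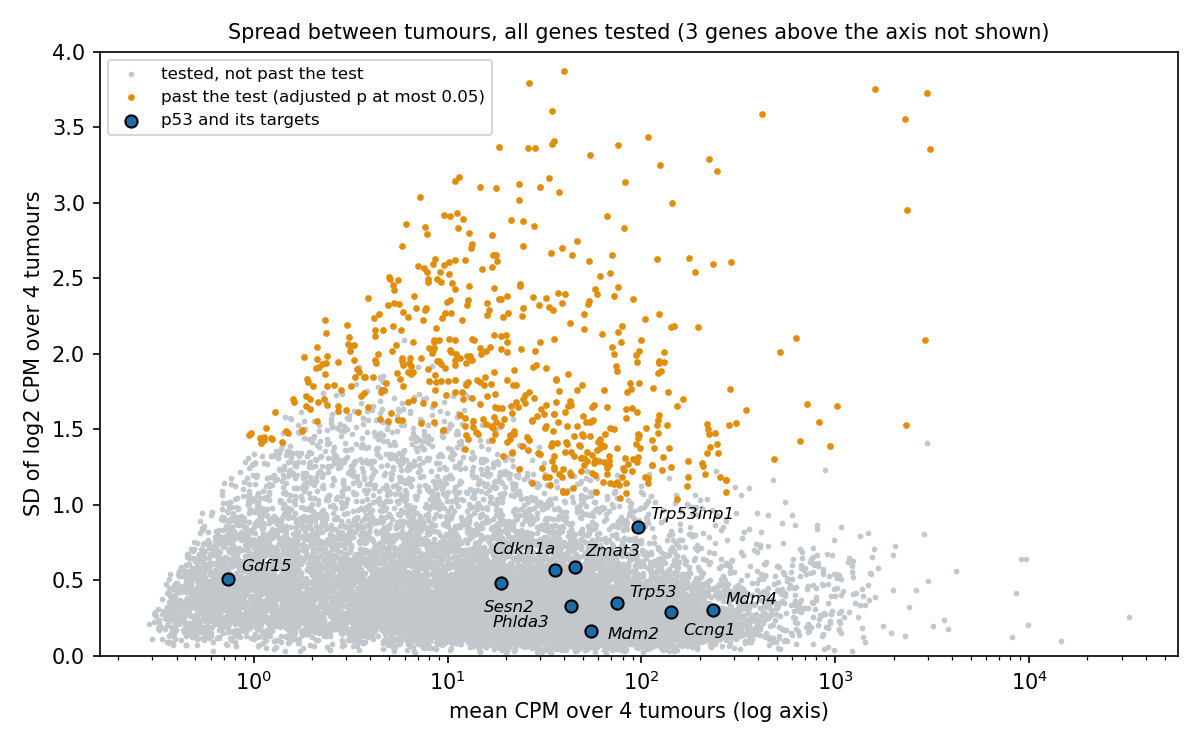
SD of log2 CPM over the 4 tumours against mean CPM (log axis) for the genes tested, with genes past the spread test in orange and p53, its regulators and targets in blue. None of the 10 blue points is among the genes past the test, and Trp53inp1 has the largest SD of them (0.85), against 0.16 for Mdm2.

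Of the 2 regulators, Mdm2 varied least. Mdm2 (chromosome 10, 117688875 to 117710758) stood at 59.1, 55.8, 46.1 and 57.8 CPM in tumours 1 to 4 (mean 54.7 ± 5.89, SD, n = 4). Its highest and lowest tumours were 1.28-fold apart, and 12.4% of the genes tested had an SD of log2 CPM at or below its own. Mdm4 (chromosome 1, 132986105 to 133030587) had 298, 248, 193 and 195 CPM (mean 233 ± 50.1, SD, n = 4), the highest CPM of the 10 genes. Tumours 3 and 4 were close together for Mdm4 and both lay below tumours 1 and 2.

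The amount of Mdm2 relative to Trp53 is given as a ratio per tumour, with no test. The ratio of Mdm2 to Trp53 counts was 0.636, 0.793, 0.562 and 1.09 in tumours 1 to 4, with 95% exact binomial limits of 0.605 to 0.669, 0.747 to 0.842, 0.53 to 0.596 and 1.02 to 1.15. These limits cover counting error within a tumour and not the variation from tumour to tumour. It was thus highest in tumour 4, where Trp53 was lowest, while Mdm2 itself had a coefficient of variation of 10.8% over the tumours. The ratio of Mdm4 to Mdm2 counts ran from 3.37 in tumour 4 to 5.05 in tumour 1. The counts are not adjusted for gene length, so these ratios are compared between tumours only, and each tumour is 1 sample.

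Cdkn1a, which encodes the cyclin-dependent kinase inhibitor p21 and is the best known p53 target in arrest, was higher in tumours 1 and 2 than in tumours 3 and 4. Cdkn1a (chromosome 17, 29090979 to 29100722) had 46.1, 47.9, 21.8 and 27.2 CPM in tumours 1 to 4 (mean 35.7 ± 13.2, SD, n = 4), and 2.20-fold separated the highest and lowest tumours. Per Trp53 count there were 0.497, 0.681, 0.266 and 0.511 Cdkn1a counts, so that tumour 3, second highest for Trp53, had the fewest. Ccng1 (chromosome 11, 40748552 to 40755309), cyclin G1, which works with a phosphatase on MDM2, had 180, 145, 113 and 130 CPM (mean 142 ± 28.7, SD, n = 4). Both genes had their lowest value in tumour 3, and in neither did the spread pass the test.

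Trp53inp1, a stress-induced protein of the nucleus and autophagosomes, gave the widest spread. Trp53inp1 (chromosome 4, 11156441 to 11174379) had 122, 116, 35.8 and 111 CPM in tumours 1 to 4 (mean 96.3 ± 40.6, SD, n = 4). Tumours 1, 2 and 4 lay close together and tumour 3 was 3.11-fold below the lowest of them. The edgeR adjusted p was 0.604. Without tumour 4 its edgeR adjusted p was 0.243, the lowest value for any of the 10 genes under the alternatives run. Zmat3 (chromosome 3, 32334792 to 32365665), an RNA-binding regulator of splicing, took 61.6, 56.0, 24.99 and 39.4 CPM (mean 45.5 ± 16.6, SD, n = 4). Sesn2 (chromosome 4, 132492804 to 132510456), sestrin 2, an inhibitor of the growth kinase complex mTORC1, had 24.4, 17.9, 11.3 and 21.5 CPM (mean 18.8 ± 5.63, SD, n = 4). For Zmat3 and Sesn2 tumour 3 lay 1.58-fold below the next lowest tumour in each case.

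Gdf15 and Phlda3 did not have tumour 3 as the lowest. Gdf15 (chromosome 8, 70629393 to 70632470), a secreted stress cytokine of the TGF-beta family, was nearly silent at 0.684, 0.607, 1.18 and 0.488 CPM, which are 29, 21, 45 and 20 counts. Its 95% exact Poisson interval in tumour 3, 0.858 to 1.57 CPM, overlapped those of tumours 1 (0.458 to 0.982) and 2 (0.376 to 0.929) and not that of tumour 4 (0.298 to 0.754). Such intervals cover counting error only. Phlda3 (chromosome 1, 135766085 to 135769134), an inhibitor of the kinase AKT, had 51.2, 34.1, 52.7 and 36.2 CPM (mean 43.6 ± 9.75, SD, n = 4), with tumours 1 and 3 above tumours 2 and 4.

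**Figure D2:**
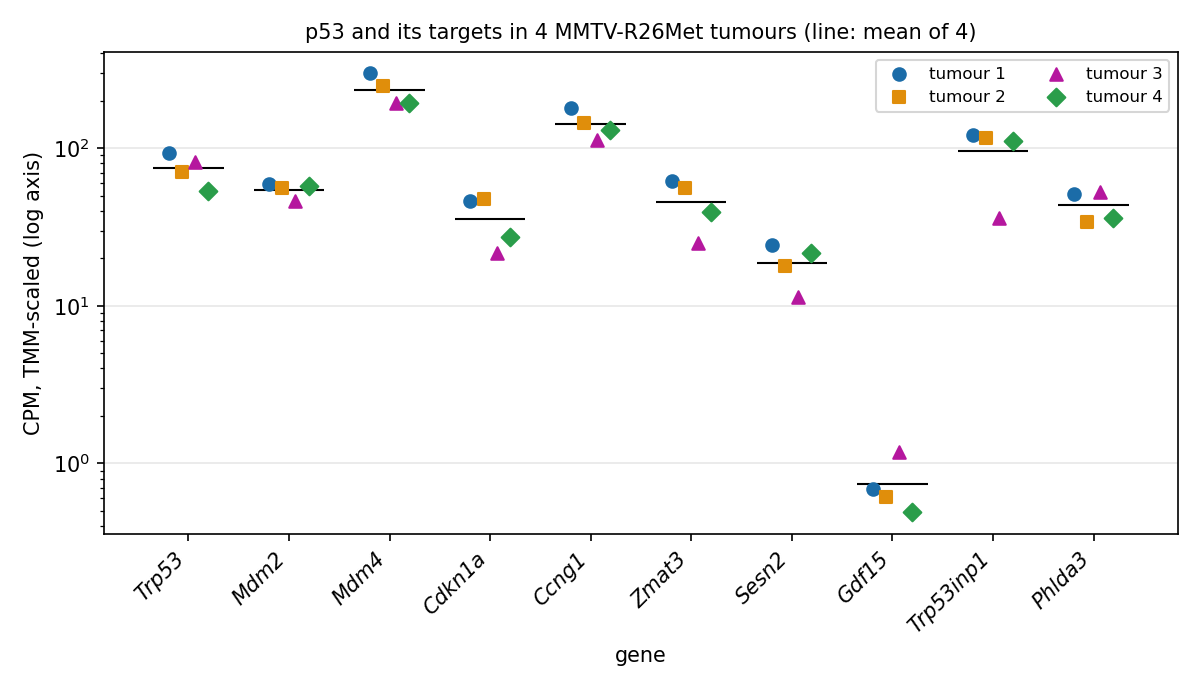
CPM (log axis) of each of the 10 genes in tumours 1 to 4, with a line at the mean of the 4 tumours. Tumour 3 (triangles) is the lowest point for 7 of the genes and the highest for Gdf15 and Phlda3.

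Levels of different genes were compared per kilobase of exon (GENCODE M21, all basic transcripts of a gene merged). Ccng1 and Trp53 were highest, at 40.4 ± 8.19 and 39.9 ± 9.08 CPM per kb (SD, n = 4). Their means differed by less than either SD, and Trp53 was the higher of them in tumour 3. Phlda3 followed at 30.4 ± 6.80. Mdm4 (21.5 ± 4.61), Trp53inp1 (17.8 ± 7.51), Mdm2 (17.4 ± 1.87) and Cdkn1a (13.2 ± 4.87) formed a middle range in which neighbours differed by less than the larger of their SDs. These SDs are between tumours. Within every tumour Mdm2 stood above Cdkn1a, while the other neighbours in this range changed order between tumours. Zmat3 (5.84 ± 2.13) and Sesn2 (5.40 ± 1.62) were lower and also differed by less than their SDs, and Gdf15 was last at 0.399 ± 0.163 CPM per kb. With the longest transcript as the length instead, Mdm4 stood at 32.9 CPM per kb, above Phlda3, and Cdkn1a at 17.2.

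**Figure D3:**
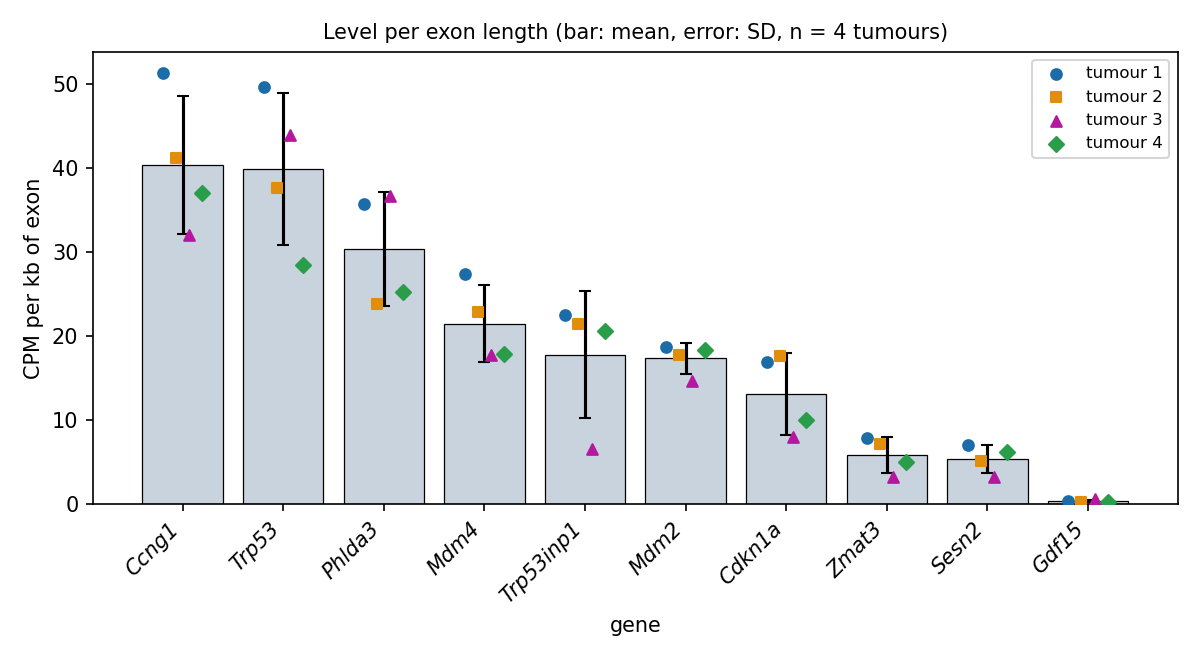
Mean CPM per kb of exon for the 10 genes (bars, error bars 1 SD over 4 tumours) with each tumour as a point. Ccng1 and Trp53 stand highest at about equal means of 40.4 and 39.9, and Gdf15 is close to 0.

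Tumour 3 was the lowest tumour for 7 of the 10 genes (Mdm2, Mdm4, Cdkn1a, Ccng1, Zmat3, Sesn2 and Trp53inp1), a count chosen after the values were known and given with no test. Of the remaining 3, Phlda3 was lowest in tumour 2 and Trp53 and Gdf15 in tumour 4. Of all genes tested 27.7% were lowest in tumour 3, and the shares for tumours 1, 2 and 4 were 24.8%, 19.7% and 27.8%. Mdm4 differed by 1.01-fold between tumours 3 and 4 and was lowest in tumour 4 instead when scaled by library size alone, which left 6 of the 10 lowest in tumour 3. For 3 of the 10 (Zmat3, Sesn2 and Trp53inp1) tumour 3 was over 1.5-fold below each other tumour, against 5.88% of all genes tested. Trp53 itself was not among them, with 82.0 CPM in tumour 3. Tumour 1 was the highest for 7 of the 10, against 22.9% of all genes, tumour 2 for 1 (18.9%), tumour 3 for 2 (29.7%) and tumour 4 for 0 (28.5%). The median of log2 CPM relative to each gene's mean over the 10 genes was 0.37, 0.04, -0.28 and -0.18 in tumours 1 to 4, and between -0.01 and 0.00 in each tumour over all genes tested.

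Other values also set tumour 3 apart. The skeletal muscle markers Acta1, Ckm and Des summed to 556 CPM in tumour 3 and to 5.02, 7.20 and 5.06 CPM in tumours 1, 2 and 4. The erythroid markers (2 of 2 detected in each tumour) summed to 3.84 CPM in tumour 3 and to 17.8 to 35.2 CPM in the others. Epithelial markers, by which the tissue label was checked, were present throughout, with Krt8 at 787 to 1235 CPM, and their sum over Epcam, Krt8, Krt18 and Cdh1 was 2983 CPM in tumour 3, within the range of the others (2283 to 3504 CPM). With each gene divided by that sum, a scaling chosen after the data were seen, 5 of the 10 (Mdm2, Cdkn1a, Zmat3, Sesn2 and Trp53inp1) were lowest in tumour 3, while Mdm4 and Ccng1 were lowest in tumour 4. The share of all genes lowest in tumour 3 under this scaling was not computed, so the 5 of 10 has no background beside it. Marker sums of leukocytes (136 to 193 CPM), fibroblasts (1569 to 2574 CPM) and endothelium (83.2 to 139 CPM) had no extreme in tumour 3, and those of adipocytes were highest there, at 91.4 CPM against 8.45 to 31.0, through Fabp4, with Adipoq at 0.183 CPM. The part of these other cells in the values of p53 targets was not tested, and in bulk RNA fewer cells of a type and less RNA per cell cannot be told apart.

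Regulators upstream of p53 were read in all tumours. For comparison, of all genes tested 3.63% passed the edgeR test, 8.74% had an unadjusted p at or below 0.05 and DESeq2 marked 0.576%. Of 10 genes of the MDM2 axis and p53 turnover 0 passed the edgeR test, with 1 at an unadjusted p of 0.05 and 0 marked by DESeq2. That gene was Cdkn2a, whose product ARF holds back MDM2 and whose other product p16 inhibits CDK4 and CDK6. Cdkn2a had 10.4, 3.82, 1.36 and 1.07 CPM in tumours 1 to 4 (443, 132, 52 and 44 counts), highest in tumour 1. The edgeR adjusted p was 0.133. Counts per gene cannot separate the products. Rpl5, a ribosomal protein that binds MDM2, had the highest mean of this list, 993 ± 274 CPM (SD, n = 4). With a common dispersion for all genes in place of the trend Cdkn2a passed (edgeR adjusted p = 0.011), and without tumour 1 its adjusted p was 1. Of 14 p53 kinases and cofactors 0 passed the edgeR test, with 0 at an unadjusted p of 0.05 and 0 marked by DESeq2. Prkdc, the catalytic subunit of DNA-dependent protein kinase, had the widest spread of these, at 45.2, 48.1, 122 and 51.2 CPM (edgeR adjusted p = 0.827), and the acetyltransferase gene Ep300 had the highest mean, 191 ± 23.2 CPM (SD, n = 4).

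The p53 relatives were scarce outside tumour 4. Trp63, which encodes the basal cell factor p63, had 46.6 CPM in tumour 4 and 2.85, 7.72 and 1.91 CPM in tumours 1, 2 and 3 (edgeR adjusted p = 3.8e-05). The call was lost without tumour 4 (edgeR adjusted p = 1). DESeq2, which was run on Trp63 and not on Trp73, did not mark Trp63. Trp73 had 60 counts (1.47 CPM) in tumour 4 and 0 counts in each of the others, which allows up to 0.0708, 0.0868 and 0.0784 CPM in tumours 1, 2 and 3. Trp73 was not tested, because the count filter asks for about 10 counts in every tumour. With no count filter both relatives passed the edgeR test.

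A further 52 p53 targets were listed by function, 50 of which were tested. Rprm, with 97, 1, 8 and 79 counts in tumours 1 to 4, was left out by the count filter, which asks for counts in every tumour. Of the 50 tested 1 passed the edgeR test, against 3.63% of all genes tested. At an unadjusted p of 0.05 there were 3, against 8.74%, and DESeq2 marked 0, against 0.576%. These counts are close to those shares. The gene that passed, Ephx1, which encodes microsomal epoxide hydrolase, had 162, 101, 17.5 and 93.3 CPM in tumours 1 to 4 (edgeR adjusted p = 0.0108). The call was lost without tumour 1 or tumour 3 (edgeR adjusted p = 0.0875 and 1), with a common dispersion (0.114) and with Holm adjustment (1). With a common dispersion 1 other target, not named here, passed instead. With no count filter Ephx1 was again the only target to pass (edgeR adjusted p = 0.018). Perp, a desmosome and apoptosis gene, had 83.4, 106, 27.3 and 75.2 CPM (edgeR adjusted p = 0.554), and Btg2, an antiproliferative gene, had 51.9, 63.6, 16.9 and 41.6 CPM (edgeR adjusted p = 0.702). All 3 of these genes were lowest in tumour 3.

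As a group the other targets did not share 1 order of tumours. Tumour 3 was the lowest for 19 of the 50 (38%) and the highest for 15, against 27.7% and 29.7% of all genes tested. Plk2, a polo-like kinase, had its highest value there, with 189, 90.3, 224 and 97.2 CPM, and so did Thbs1, the matrix protein thrombospondin 1, with 634, 633, 1059 and 744 CPM. Among 17 further mouse signature genes 8 were lowest in tumour 3 and 4 highest, and among 11 apoptosis targets 5 and 3. Among 10 metabolism and autophagy targets the counts were 3 and 5, among 6 cell cycle arrest targets 2 and 2, and among 6 repair and nucleotide supply targets 1 and 1. Of the metabolism and autophagy targets, Gpx1, a glutathione peroxidase, had 261, 380, 201 and 345 CPM, and Cpt1c, a carnitine palmitoyltransferase, 13.5, 4.77, 9.49 and 3.20 CPM. The 6 repair and nucleotide supply targets had a median fold of 1.36 between extremes, below the 1.72 of all genes tested. Xpc, which recognises DNA damage, stood at 35.2 ± 4.03 CPM (SD, n = 4), and Rrm2b, a ribonucleotide reductase subunit, at 36.01, 35.4, 24.6 and 20.7 CPM.

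**Figure D4:**
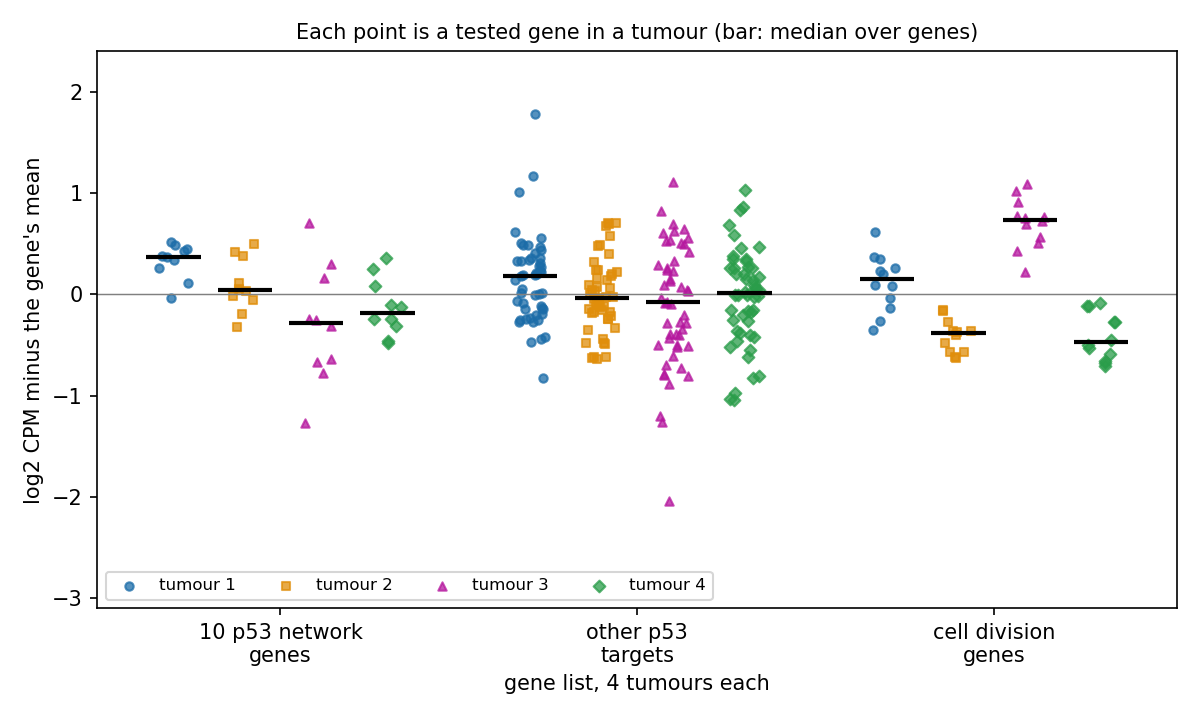
log2 CPM minus the gene's own mean over the 4 tumours for the 10 genes around p53, the 50 other p53 targets tested and 12 cell division genes, 1 point per gene and tumour, with the median as a bar. In tumour 3 the medians are -0.28, -0.08 and 0.74.

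Cell division genes, many of which p53 is known to hold down through p21, were set beside the targets. Whether p53 or p21 had a part in their levels in these tumours was not tested, and each tumour is 1 sample. Tumour 3 was the highest for 11 of 12, against 29.7% of all genes tested. With library size alone it was the highest for 12, and for 5524 of the 15808 genes tested. In the edgeR test 0 of 12 passed, with 0 at an unadjusted p of 0.05 and 0 marked by DESeq2. Over all genes tested these shares were 3.63%, 8.74% and 0.576%. Mki67, the proliferation marker Ki-67, had 513, 365, 713 and 399 CPM, and its spread did not pass. Top2a, a topoisomerase of dividing cells, had 339, 198, 597 and 187 CPM (edgeR adjusted p = 0.577).

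Sesn2 and Gdf15 are also targets of the integrated stress response, the ATF4 pathway. Of 13 genes of that pathway 0 passed the edgeR test, with 1 at an unadjusted p of 0.05 (Vldlr, a lipoprotein receptor) and 0 marked by DESeq2. Over all genes tested these shares were 3.63%, 8.74% and 0.576%. Atf4 itself had 232, 235, 235 and 216 CPM, and of the 13 genes 6 were lowest in tumour 4 and 5 highest in tumour 3, against 27.8% and 29.7% of all genes tested. Gdf15, with 20 to 45 counts, was lowest in tumour 4 and highest in tumour 3, and Sesn2 was lowest in tumour 3 and highest in tumour 1. Which pathway set the level of either gene was not tested. Vldlr had 107, 42.8, 138 and 47.7 CPM (edgeR adjusted p = 0.413). The motif TGATGNAA, searched on both strands as part of the ATF4 element, was in 3.97% of all promoter windows and in those of 7 of 12 genes of the pathway that had a window. It was in 0 of the 11 windows of p53 and its targets.

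Paralogs of the 10 genes were examined in the same way. Of 9 paralogs tested 0 passed the edgeR test, with 1 at an unadjusted p of 0.05 and 0 marked by DESeq2. Over all genes tested these shares were 3.63%, 8.74% and 0.576%. The median fold between extremes was 1.54 for the paralogs. The widest spread was that of Phlda2, with 2.31, 1.30, 2.22 and 0.269 CPM (edgeR adjusted p = 0.42), while Phlda1 had 149, 105, 85.5 and 80.2 CPM. Tumour 3 was the lowest for 1 of the 9, against 27.7% of all genes tested. That paralog was Sesn1, which is a p53 target as well.

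The genes whose pattern over the 4 tumours lay closest to 3 of the 10 genes were sought among 11136 other named genes whose mean was 5 CPM or more. Closeness was the root mean square difference in log2 CPM after centring. Closest to Trp53 were Ndufb3 (0.011), Pnkd (0.013) and Nabp2 (0.019), and closest to Cdkn1a were Arfgap3 (0.020), Ccdc28a (0.029) and Gnptab (0.032). Closest to Trp53inp1 were H2-T23 (0.060), Fxyd6 (0.076) and Hebp2 (0.12). H2-T23 had CPM of 315, 316, 97.2 and 323 in the 4 tumours, although class I genes have near-identical copies and carry uncertain counts. The likeness is over 4 tumours only, and none of these 9 genes is in the p53 lists.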

How the data were processed

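Poly-A RNA of 4 MMTV-R26Met mammary tumours was fragmented, copied by random priming and sequenced as paired reads, per the labels' protocols. The authors deposited 1 table of raw counts per Entrez gene, with 1 column per tumour, and its deposited counts carry no normalization. FastQC and the builds GRCm38 and mm10 are named per the submitters' processing notes. Aligner, counter, annotation and strand setting were not given in the sources used here. Counts of overlapping genes (Cdkn1a, Mdm4 and Sesn2 overlap other GENCODE loci) and of genes with a processed pseudogene (Trp53 and Mdm4) are therefore uncertain.

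Of 28440 rows 86.08% matched a symbol in RefSeq (GRCm38.p6), holding 97.86% of counts. Library totals of tumours 1 to 4 were 42809015, 35220504, 36885892 and 41756363 counts. In edgeR 4.0.16 (R 4.3.3), filterByExpr kept 15808 genes, and TMM gave the CPM. With all 4 tumours as 1 group it asked for about 10 counts at the median library in every tumour, and 15 in total. A gene absent from 1 tumour was therefore not tested, however high it was in the others. For each gene a negative binomial model with an intercept alone was fitted with the dispersion taken from the trend, and the deviance was compared with chi-square on 3 degrees of freedom (Benjamini-Hochberg over all genes, threshold 0.05). With 1 group there is no contrast, hence no quasi-likelihood test. log2 CPM used a prior count of 2. On simulated counts the test passed 3 of 15196 unchanged genes, and found 95.8% of 48 genes raised 16-fold in 1 library. Alternatives were RLE and library-size scaling, other filters, Holm adjustment, a common dispersion, DESeq2 1.42.0, prior counts of 0.5 and 5 and each tumour left out.

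The genes and lists were chosen with earlier results of these data known. Named genes were the 10 genes, and from each other list the member with the highest mean, the tested member with the largest SD and every member past the test, then the genes closest in pattern to Trp53, Cdkn1a and the widest-spread member, and the epithelial markers. Other genes were named after their values were seen.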

Additional observations from a re-analysis of the deposited data

Results flagged for a closer look

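The values examined numbered 54 (the CPM of the genes whose values are given, the marker sums and the ratios of counts). In 8 of them 1 tumour had a gap to the nearest other tumour above 0.829 of the whole range. Chance passes this limit in about 1 of 20 groups of 4 taken without regard to their values. That rate does not hold for these 54. Some, Trp63 and Prkdc among them, were named for a wide spread, and others after their values were seen. Trp53inp1 had 35.8 CPM in tumour 3 against 111 to 122 CPM in the others. H2-T23 (97.2 CPM in tumour 3 against 315 to 323) and Hebp2 (7.45 CPM in tumour 3 against 25.6 to 28.4) share this pattern by choice, since they were taken as the genes most like Trp53inp1. Prkdc had 122 CPM in tumour 3 against 45.2 to 51.2 CPM. Trp63 had 46.6 CPM in tumour 4 against 1.91 to 7.72 CPM, and Trp73 had 1.47 CPM there against 0 counts in the others. The summed skeletal muscle markers stood at 556 CPM in tumour 3 against 5.02 to 7.20 CPM. Adipoq had 3.73 CPM in tumour 2 against 0.183 to 0.269 CPM.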

How the results depend on the processing

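The count of 0 of 10 genes past the spread test was 0 under all 11 alternatives, including each tumour left out and DESeq2. All 99 recomputed adjusted p-values of the 10 genes were above the threshold, and all 160 recomputed levels moved by less than the SD between tumours. Of the 197 recomputed adjusted p-values of 20 other named genes 191 kept their side of the threshold, the rest being those of Trp63, Ephx1 and Cdkn2a given above. The count of genes lowest in tumour 3 was examined under alternatives chosen after seeing the data. It was 7 with RLE scaling, 6 with library size alone and 5 relative to epithelial markers. With 596 genes over 20-fold higher in tumour 3 left out of the library totals it was 6. Those genes held 0.416% of the counts of tumour 3, so this scaling nearly repeats library size alone and is no separate check. Over all genes the 574 past the test became 198 with Holm adjustment, 895 of 23632 with no count filter, 91 by DESeq2 and 367 to 417 with a tumour left out. Library size alone moved the median gene of tumour 3 by 0.06 (log2). The p53 relatives past the test numbered 2 with no count filter, and from 0 (without tumour 4) to 1 with a tumour left out. DESeq2 marked 0, but was run on Trp63 and not on Trp73. The other p53 targets past the test numbered 0 with Holm adjustment, 0 without tumour 1, 0 without tumour 3 and 0 by DESeq2, and over the tumours left out they ran from 0 to 1. With a common dispersion they numbered 1, a gene other than Ephx1. With a common dispersion 1 gene of the MDM2 axis passed. Apart from fewer samples, the causes were not tested. No paired analysis was possible because the labels give 1 group. Depth limits Gdf15, with 20 to 45 counts. Trp73 was left out by the count filter because it had no counts in tumours 1, 2 and 3.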
